A study of Hordeum vulgare with 6 samples.

Results

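The region described here is the stretch of barley chromosome 5H within 10 Mb of *HvTCP25* (HORVU.MOREX.r3.5HG0497460, positions 494905007 to 494906005 of the Morex V3 assembly), the transcription factor gene at the locus to which the study mapped the *msnsd* mutation. Every annotated gene with its start between positions 484905007 and 504905007 was taken as a member, and *HvTCP25* itself was left out. This gave 474 members of the 40411 genes in the table, beside 5968 other genes of 5H. The rule uses positions and no expression value.

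The study compared 3 RNA-seq libraries of E934 (a feed barley variety, labelled wild type) with 3 libraries of *msnsd*, a recessive mutant with multiple stem nodes, several spikes per tiller and a dwarf habit. *msnsd* was selected after E934 had been treated with ethyl methane sulfonate and 60Co radiation, so it can carry other induced changes besides the mapped one, and *msnsd* is a single line. All libraries came from young panicles of 0.5 to 1 cm, and both genotypes share the E934 background. Expression was given as TPM (a transcript's share of its library, scaled to the same total in each), which corrects for gene length and library size but keeps no depth, so the number of reads behind a value is unknown.

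TCP proteins are plant transcription factors named after TEOSINTE BRANCHED1 of maize, CYCLOIDEA of snapdragon and the PCF proteins of rice. In grasses they are known for their part in axillary branching and in the shape of the inflorescence. In the study's mapping cross of *msnsd* with the variety Harrington, the mutation is inherited with the stretch of chromosome around it. The libraries here compare *msnsd* with its own parent E934, so the neighbouring genes are described only as the surroundings of the locus. A short way along 5H from *HvTCP25* lies a cluster of genes for CRT-binding factors (CBFs), AP2-type activators of cold-response genes that are known in barley from the frost-resistance locus on this chromosome.

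Designed primers of 3 markers from the study's fine mapping are shown because they mark the stretch of 5H around the locus. Their sequences came from the study's primer sheet, and the universal tail was removed from the allele-specific primers. The capital at the end of an allele-specific primer is the base that tells the alleles apart. Their positions in the assembly were not looked up.
5H-49470, common forward primer: aggagccacccaggagatc
5H-49470, reverse primer for the G allele: aaggcggtgccaccG
5H-49470, reverse primer for the A allele: caaggcggtgccaccA
5H-49552, common forward primer: tggacgcgaccgggtg
5H-49552, reverse primer for the C allele: tcgccgtcgccgtcC
5H-49552, reverse primer for the G allele: tcgccgtcgccgtcG
5H-TCP, forward primer for the C allele: aggcgccatcccgttC
5H-TCP, forward primer for the T allele: aggcgccatcccgttT
5H-TCP, common reverse primer: ccacatggccccatgctt

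The annotation gave 318 members as high-confidence and 156 as low-confidence gene models. Low-confidence models made up 32.9% of the members and 41.2% of the other 5H genes. By biotype, 427 members were protein-coding, 29 were related to transposons, 14 were non-coding and 4 were plastid-related. A protein-coding RefSeq gene model of the same assembly overlapped 356 members, 290 of them high-confidence. Another member overlapped 11 of them, and the way reads were shared between such genes is not known. The region was unevenly divided by *HvTCP25*, with 260 members at lower and 214 at higher coordinates.

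A mean of at least 0.1 TPM over the 6 libraries was needed for testing, and 391 members (82.5%) reached it, close to the 81.8% of the other 5H genes. The 83 members below it included 49 high-confidence models, and the highest mean among them was 0.0983 TPM. The tested members had a median level of 5.26 TPM and the other 5H genes one of 4.86 TPM. Together the members held between 6.76% and 7.18% of all TPM on 5H in every library, with the E934 and *msnsd* libraries overlapping. The 6 libraries listed between 33227 and 35537 genes above 0. Genes described as MADS-box, knotted, squamosa promoter-binding or YABBY factors, which mark the young inflorescence, summed to between 2607 and 2765 TPM, and the genotypes overlapped. Summed leaf markers (photosystem and chlorophyll-binding genes) lay between 1107 and 1508 TPM and pollen markers between 60.1 and 78.5 TPM, again overlapping. The 68 genes described with grain storage words summed to 646.8 to 785.9 TPM in E934 and 874.9 to 947.5 TPM in *msnsd*, without overlap. The 24 genes described as 2S albumin or lipid-transfer proteins alone summed to 559.6 to 662.3 TPM in E934 and 762.5 to 826.2 TPM in *msnsd*. Whether either sum marks grain tissue, and the part of this difference in the values below, was not tested.

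The nearest genes came first, since the mapped interval lies among them. *HvTCP25* itself was listed at 8.27, 4.71 and 5.13 TPM in E934 and at 8.59, 7.28 and 7.32 TPM in *msnsd*, and the genotypes overlapped. Both its lowest and its highest value were greater in *msnsd*. The study reports a slightly lower level in *msnsd* that was not significant, so the direction differs, and the reason was not tested. Within 200 kb of the *HvTCP25* start lay 17 members, of which 12 were tested. The untested genes were a putative protein kinase (HORVU.MOREX.r3.5HG0497450) and 4 CBF genes. Among the 12 tested, the lowest unadjusted p of limma was 0.0559 and the lowest adjusted p was 0.475 (limma on log2(TPM + 0.1), Benjamini-Hochberg over 32968 genes). None of these neighbours therefore passed a test at 0.05, adjusted or not. In whole panicles, fewer cells of a type and less RNA per cell cannot be told apart.

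The neighbour of highest level was an RNA helicase gene (HORVU.MOREX.r3.5HG0497370), of a family that unwinds RNA. It was listed at 263.84, 297.16 and 274.40 TPM in E934 and at 285.08, 259.82 and 252.61 TPM in *msnsd*. Its libraries overlapped, and the log2 fold change of *msnsd* over E934 was -0.07. A 3-ketoacyl-CoA synthase gene (HORVU.MOREX.r3.5HG0497440), of the enzyme family that elongates very-long-chain fatty acids, was at 49.06, 41.84 and 41.52 TPM in E934 and at 49.19, 52.02 and 41.09 TPM in *msnsd*. Here too the genotypes overlapped, with a log2 fold change of 0.10. Its neighbour of the same family (HORVU.MOREX.r3.5HG0497430) stayed at or below 0.39 TPM in every library.

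Among these neighbours the libraries of the genotypes were apart for 3 of 12 genes (25%), all with the *msnsd* libraries above, beside 16.6% of all tested genes and 8.73% with *msnsd* above. A gene described as a binding protein (HORVU.MOREX.r3.5HG0497340) was at 9.32, 16.85 and 22.11 TPM in E934 and at 22.23, 22.76 and 24.35 TPM in *msnsd*. The gap between the highest E934 and the lowest *msnsd* library was far smaller than the spread within E934, and the log2 fold change of 0.61 had a standard error of 0.29 and an adjusted p of 0.503 by limma. It was 0.26 without E934 replicate 1. The gene for an ATPase homologous to ASNA1 (HORVU.MOREX.r3.5HG0497480), which in yeast and animals delivers tail-anchored proteins to the endoplasmic reticulum, was at 32.32, 28.60 and 31.95 TPM in E934. In *msnsd* it was at 33.59, 34.42 and 34.93 TPM, a log2 fold change of 0.15 with a standard error of 0.08 and an adjusted p of 0.538 by limma. Every *msnsd* library was above every E934 library, by little. The other gene was the 3-ketoacyl-CoA synthase of low level named above, with a log2 fold change of 0.56 and a standard error of 0.43.

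At higher coordinates than *HvTCP25*, the gene for flap endonuclease 1 (HORVU.MOREX.r3.5HG0497500), which trims DNA flaps during replication and repair, had the smallest p of the 12. It was at 15.40, 19.46 and 20.03 TPM in E934 and at 14.03, 15.92 and 14.59 TPM in *msnsd*. The single lowest E934 library lay within the *msnsd* range, and the log2 fold change was -0.29 with a standard error of 0.13 and an adjusted p of 0.475 by limma. The largest log2 fold change, 1.52 with a standard error of 0.89, belonged to a lectin receptor-like kinase gene (HORVU.MOREX.r3.5HG0497420) that was at 0, 0.65 and 0 TPM in E934 and at 0.80, 0.52 and 0.22 TPM in *msnsd*. At such levels the pseudocount of 0.1 sets much of the size of a fold change, and the genotypes overlapped.

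The remaining tested neighbours overlapped between genotypes. They were a Ycf49-like gene (HORVU.MOREX.r3.5HG0497350, 8.70 to 11 TPM over all libraries) and a bile acid sodium symporter gene (HORVU.MOREX.r3.5HG0497360, 12.81 to 14.97 TPM), which share a RefSeq model. An alpha-L-fucosidase 1 gene (HORVU.MOREX.r3.5HG0497400, 2.63 to 4.73 TPM), for an enzyme of cell-wall glycans, shares its model with a gene described as a GMP synthase (HORVU.MOREX.r3.5HG0497410, at or below 0.28 TPM). The last was a Mutator transposon (HORVU.MOREX.r3.5HG0497380, 0.36 to 1.48 TPM).

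Over the whole region, the question was whether members differed between the genotypes more often than genes elsewhere. The study's threshold was a log2 fold change of 1.5 or more in either direction and an adjusted p of 0.05 or less. Applied here to limma, it was passed by 0 of the 391 tested members and by 0 of the 4884 other tested 5H genes. Among all 32968 genes tested by limma it was passed by 16 (0.0485%). The study applied it to DESeq2 and lists 5H genes among those that passed, so the counts here are not the study's. At an unadjusted limma p under 0.05 there were 44 members, and with an adjusted p of at most 0.05 and no fold threshold there was 1 member, beside 0.0667% of all tested genes.

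Of the 44 members with an unadjusted p under 0.05, 26 were higher and 18 lower in *msnsd*, which was 11.3% of those tested. The same share was 9.89% of the other 5H genes (237 higher, 246 lower) and 10.7% of all genes tested, so the share in the region was near the background. Higher genes were 5.58% and lower genes 5.09% of all genes tested. For 71 members there was no overlap between genotypes, with *msnsd* above in 39 and below in 32. That was 18.2% of the members against 16.2% of the other 5H genes and 16.6% of all tested genes (8.73% with *msnsd* above and 7.86% with *msnsd* below). Leaving out E934 replicate 1 raised the 44 members to 71 (18.2%), beside 14.6% of the other 5H genes and 5120 of 32931 genes in all. Leaving out *msnsd* replicate 3 lowered them to 25 (6.35%), beside 6.54% of the other 5H genes and 2302 of 33040 genes in all.

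The sizes of the differences were likewise near those elsewhere. The median absolute log2 fold change was 0.215 in the region, 0.206 over the other 5H genes and 0.214 over all tested genes, and the signed medians were 0.005, -0.024 and -0.017. Log2 fold changes of the members ran from -2.97 to 1.90, and both ends belonged to members with a mean under 1 TPM. The lowest (HORVU.MOREX.r3.5HG0497290) was -0.774 with a pseudocount of 1 and -6.10 with one of 0.01, so its size rests on the pseudocount. A log2 fold change of 1 or more in either direction was found in 23 members (5.88%), in 9.46% of the other 5H genes and in 9.42% of all tested genes. Both this size and an unadjusted p under 0.05 were found in 8 members (2.05%), beside 2.91% of the other 5H genes and 3.18% of all tested genes, and 2 of the 8 had a mean of at least 1 TPM.

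**Figure D1:**
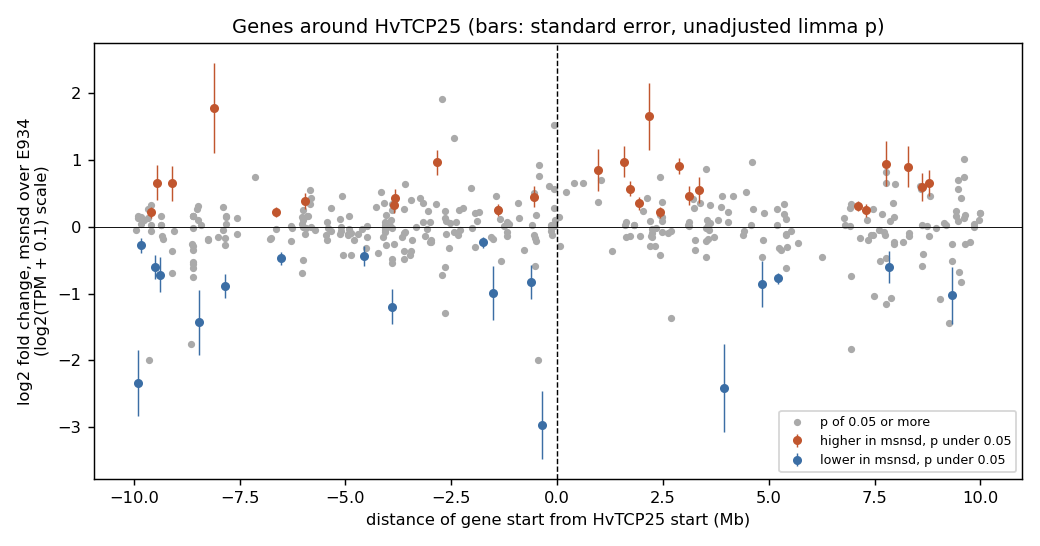
Log2 fold change (*msnsd* over E934, from log2(TPM + 0.1)) for the 391 tested members, against the distance of each gene's start from that of *HvTCP25* in Mb, at 0 on the axis. Orange and blue points with standard errors are the 26 higher and 18 lower members with an unadjusted limma p under 0.05, which lie along the whole region, and grey points are the rest.

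The share of members with an unadjusted p under 0.05 did not change in order with distance from the locus. Of the 12 genes tested within 0.2 Mb, 0 had an unadjusted p under 0.05, and with so few genes this bin is thin. From 0.2 to 1 Mb the count was 4 of 21 (19.0%), with 2 higher and 2 lower, and the median level there was only 0.53 TPM. It was 8 of 59 (13.6%) from 1 to 2.5 Mb, 10 of 113 (8.85%) from 2.5 to 5 Mb and 22 of 186 (11.8%) from 5 to 10 Mb. Outside the region, shares ran from 8.38% of 537 genes at 10 to 25 Mb to 11% of 791 genes at 25 to 50 Mb. The share of members without overlap, beside 16.6% of all tested genes, was 3 of 12 (25%) within 0.2 Mb and 7 of 21 (33.3%) from 0.2 to 1 Mb, and from 1 Mb outward it lay between 15.9% and 18.6% in the region. The higher share within 1 Mb rests on these bins of 12 and 21 genes and was not tested. Across the 391 members, Spearman's rho of distance was 0.023 with the absolute limma statistic and 0.055 with the mean TPM, given as a description over genes that share the same 6 libraries.

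**Figure D2:**
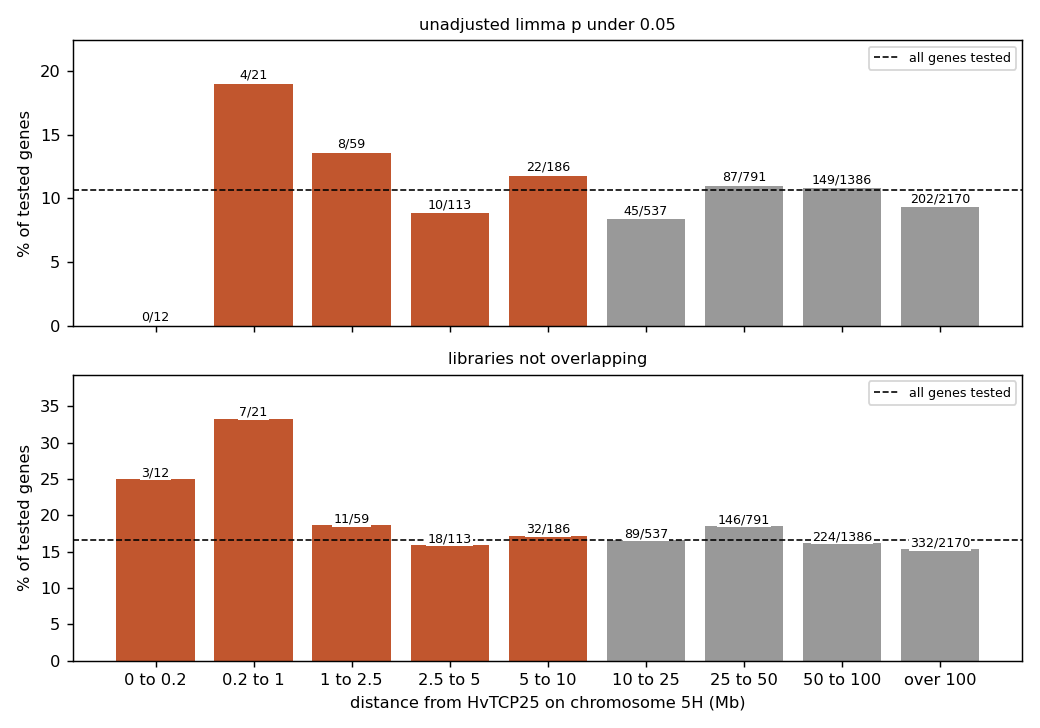
Percent of tested 5H genes with an unadjusted limma p under 0.05 (top) and with no overlap between the 3 E934 and 3 *msnsd* libraries (bottom), by distance from *HvTCP25* in Mb. Orange bars are bins of the region and grey bars the rest of 5H, numbers are genes counted over genes tested, and the dashed lines mark the 10.7% and 16.6% of all tested genes, which bars on both sides of 10 Mb lie above and below.

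Each side of *HvTCP25* was also counted. At lower coordinates 24 of 221 tested members (10.9%) had an unadjusted p under 0.05, 11 higher and 13 lower in *msnsd*. At higher coordinates there were 20 of 170 (11.8%), 15 higher and 5 lower. Within 3 Mb at higher coordinates all 7 such genes, of 42 tested (16.7%, beside 10.7% of all tested genes and 5.58% higher), were higher in *msnsd*, whereas within 3 Mb at lower coordinates 3 of 69 were higher and 4 lower. This boundary was chosen after the values had been seen, and the difference between the sides was not tested. Among 11 blocks of 1 Mb with at least 20 tested genes, the share ran from 3.85% to 25.9%, and the highest was the outermost block at lower coordinates, 7 of 27 genes between 9 and 10 Mb from the locus.

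Since the test finds differences more readily at some levels than at others, members were set beside other 5H genes of like mean TPM. In the lowest class, from 0.1 to 1 TPM, 6 of 118 members (5.08%) and 6.13% of the other 5H genes had an unadjusted p under 0.05. From 1 to 10 TPM there were 20 of 108 members (18.5%), 13 higher and 7 lower, against 161 of 1483 other 5H genes (10.9%). From 10 to 100 TPM the shares were 11.7% of 145 members and 12% of the others, and at 100 TPM and over 1 of 20 members and 12.1% of the others. Only the class from 1 to 10 TPM thus stood above the rest of 5H by more than 1 percentage point, and there the share was 19.0% within 5 Mb and 18% from 5 to 10 Mb of the locus. In that class, leaving out *msnsd* replicate 3 gave 11 members (10.2%) beside 8.02%, and leaving out E934 replicate 2 gave 13 (12.1%) beside 9.84%.

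**Figure D3:**
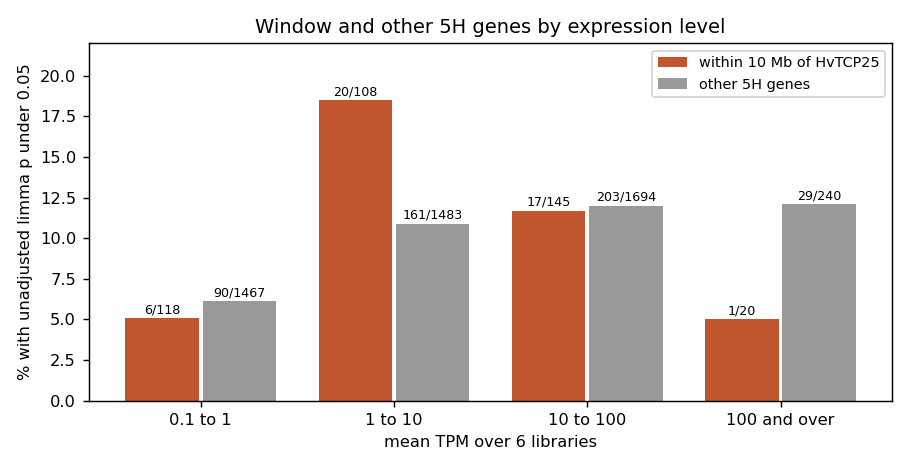
Percent of tested genes with an unadjusted limma p under 0.05 by class of mean TPM over 6 libraries, for members (orange) and other 5H genes (grey), with genes counted over genes tested above each bar. The bars differ most in the class from 1 to 10 TPM (18.5% against 10.9%) and at 100 TPM and over, where 1 of 20 members was counted.

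The members with the smallest p in each direction are described next, 8 higher and 8 lower in *msnsd*. All but 1 missed an adjusted p of 0.05, and an exact two-sided permutation test of 3 against 3 libraries cannot go below 0.1, which each of the 16 reached because its libraries did not overlap. They were picked by small p, and 39 of the 44 members with an unadjusted p under 0.05 had no overlap, beside 16.6% of all tested genes. Their separation is therefore no independent support.

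The exception was a glucan 1,3-beta-glucosidase gene (HORVU.MOREX.r3.5HG0498960, 500114464 to 500115684), of an enzyme family that cuts cell-wall beta-glucans. It was at 51.38, 56.99 and 57.98 TPM in E934 and at 30.98, 33.94 and 32.16 TPM in *msnsd*. Each *msnsd* library was far below each E934 library. The log2 fold change was -0.77 with a standard error of 0.08 and an adjusted p of 0.0475 by limma, a level 0.584 times that of E934. Over the alternative settings the adjusted p ran from 0.0399 to 0.249 and the log2 fold change from -0.83 to -0.74, so the call is at the edge of the threshold while its size is steady.

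A glucuronoxylan 4-O-methyltransferase gene (HORVU.MOREX.r3.5HG0497820, start 496624216), for an enzyme that methylates the glucuronic acid side chains of xylan, was at 5.47, 5.52 and 5.96 TPM in E934 and at 8.23, 8.74 and 8.30 TPM in *msnsd*. Its log2 fold change was 0.57 with a standard error of 0.12 and an adjusted p of 0.164 by limma, and the replicates of each genotype lay close together. An endoglucanase gene (HORVU.MOREX.r3.5HG0499440, start 502023800) was at 31.00, 29.49 and 29.39 TPM in E934 and at 38.86, 35.46 and 37.53 TPM in *msnsd*, with a log2 fold change of 0.31 and an adjusted p of 0.224 by limma. Endoglucanases cut within beta-glucan chains. The other endoglucanase gene with an unadjusted p under 0.05 (HORVU.MOREX.r3.5HG0498360) was at 3.29, 4.02 and 5.28 TPM in E934 and at 6.06, 5.97 and 6.19 TPM in *msnsd*, again with every *msnsd* library above.

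The smallest p among the higher members belonged to a putative cytochrome P450 gene (HORVU.MOREX.r3.5HG0498240, 497797116 to 497799248), of an enzyme family of oxidases. The annotation gives it as a low-confidence, non-coding model. It was at 172.61, 135.84 and 186.42 TPM in E934 and at 296.29, 331.39 and 294.58 TPM in *msnsd*. The lowest *msnsd* library was well above the highest E934 library. The log2 fold change was 0.91 with a standard error of 0.13, or 1.86-fold in mean TPM, and the adjusted p of limma was 0.0748, from 0.0639 to 0.288 over the alternative settings.

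A mitochondrial carrier gene (HORVU.MOREX.r3.5HG0496050, start 492061793), of the family that moves metabolites across the inner mitochondrial membrane, was at 63.27, 51.69 and 44.06 TPM in E934 and at 94.50, 86.68 and 130.59 TPM in *msnsd*. *msnsd* replicate 3 was higher than the other two, and all 3 were above E934, with a log2 fold change of 0.96, a standard error of 0.19 and an adjusted p of 0.143 by limma. A BAG family chaperone regulator gene (HORVU.MOREX.r3.5HG0497770, start 496478226), whose proteins bind Hsp70 chaperones, was at 3.07, 4.69 and 4.46 TPM in E934 and at 8.77, 6.09 and 9.43 TPM in *msnsd*. Its log2 fold change of 0.97 had a standard error of 0.24 and an adjusted p of 0.225 by limma.

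A rhomboid-like gene (HORVU.MOREX.r3.5HG0497900), of a family of intramembrane proteases, was at 23.22, 24.92 and 23.55 TPM in E934 and at 27.84, 30.41 and 33.39 TPM in *msnsd*, a log2 fold change of 0.35. A thaumatin gene (HORVU.MOREX.r3.5HG0500120), of a family known among pathogenesis-related proteins, was at 3.07, 3.33 and 2.90 TPM in E934 and at 5.71, 3.90 and 5.42 TPM in *msnsd*, a log2 fold change of 0.66. The adjusted p of limma was 0.271 for the rhomboid-like gene and 0.314 for the thaumatin gene. Both had every *msnsd* library above every E934 library, *msnsd* replicate 2 being nearest to E934 for the thaumatin gene.

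Among the lower members, a peroxisomal fatty acid beta-oxidation multifunctional protein gene (HORVU.MOREX.r3.5HG0493960, start 487054297) was at 7.47, 6.78 and 5.64 TPM in E934 and at 3.77, 3.02 and 3.81 TPM in *msnsd*. The protein works in the breakdown of fatty acids in peroxisomes. The log2 fold change was -0.89 with a standard error of 0.18 and an adjusted p of 0.152 by limma. An RNA-binding protein gene with an RRM motif (HORVU.MOREX.r3.5HG0495670, start 491011539) was at 2.81, 3.95 and 3.63 TPM in E934 and at 1.38, 1.90 and 1.13 TPM in *msnsd*, a log2 fold change of -1.20 with a standard error of 0.26 and an adjusted p of 0.186 by limma. The genotypes were clearly apart in both genes, at low levels. An F-box gene (HORVU.MOREX.r3.5HG0493300), of the family that selects proteins for ubiquitination, was at 11.65, 11.56 and 10.14 TPM in E934 and at 8.05, 8.42 and 5.67 TPM in *msnsd*, with a log2 fold change of -0.60 and an adjusted p of 0.300 by limma.

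Of the remaining lower members, 3 were near the floor of the table, and the MADS-box gene is given with the transcription factors. A low-confidence phosphoglycerate mutase gene (HORVU.MOREX.r3.5HG0497290, start 494539091) was at 0.53, 0.48 and 1.21 TPM in E934 and listed at 0 in the 3 *msnsd* libraries. A retrotransposon gene (HORVU.MOREX.r3.5HG0493050, start 485013582) was at 0.63, 0.29 and 0.36 TPM in E934 and likewise listed at 0 in *msnsd*. These were the only members above 0 in every E934 library and listed at 0 in every *msnsd* library, beside 10 of the other 5H genes and 0.203% of all tested genes, and no member showed the reverse. A gene for a microtubule-associated protein of the MAP70 family (HORVU.MOREX.r3.5HG0498650, start 498842713) was at 0.79, 1.07 and 0.45 TPM in E934 and at 0.28, 0 and 0 TPM in *msnsd*. Its log2 fold change of -2.41 ran from -4.58 to -0.69 over the alternative settings, so its size rests on the pseudocount.

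**Figure D4:**
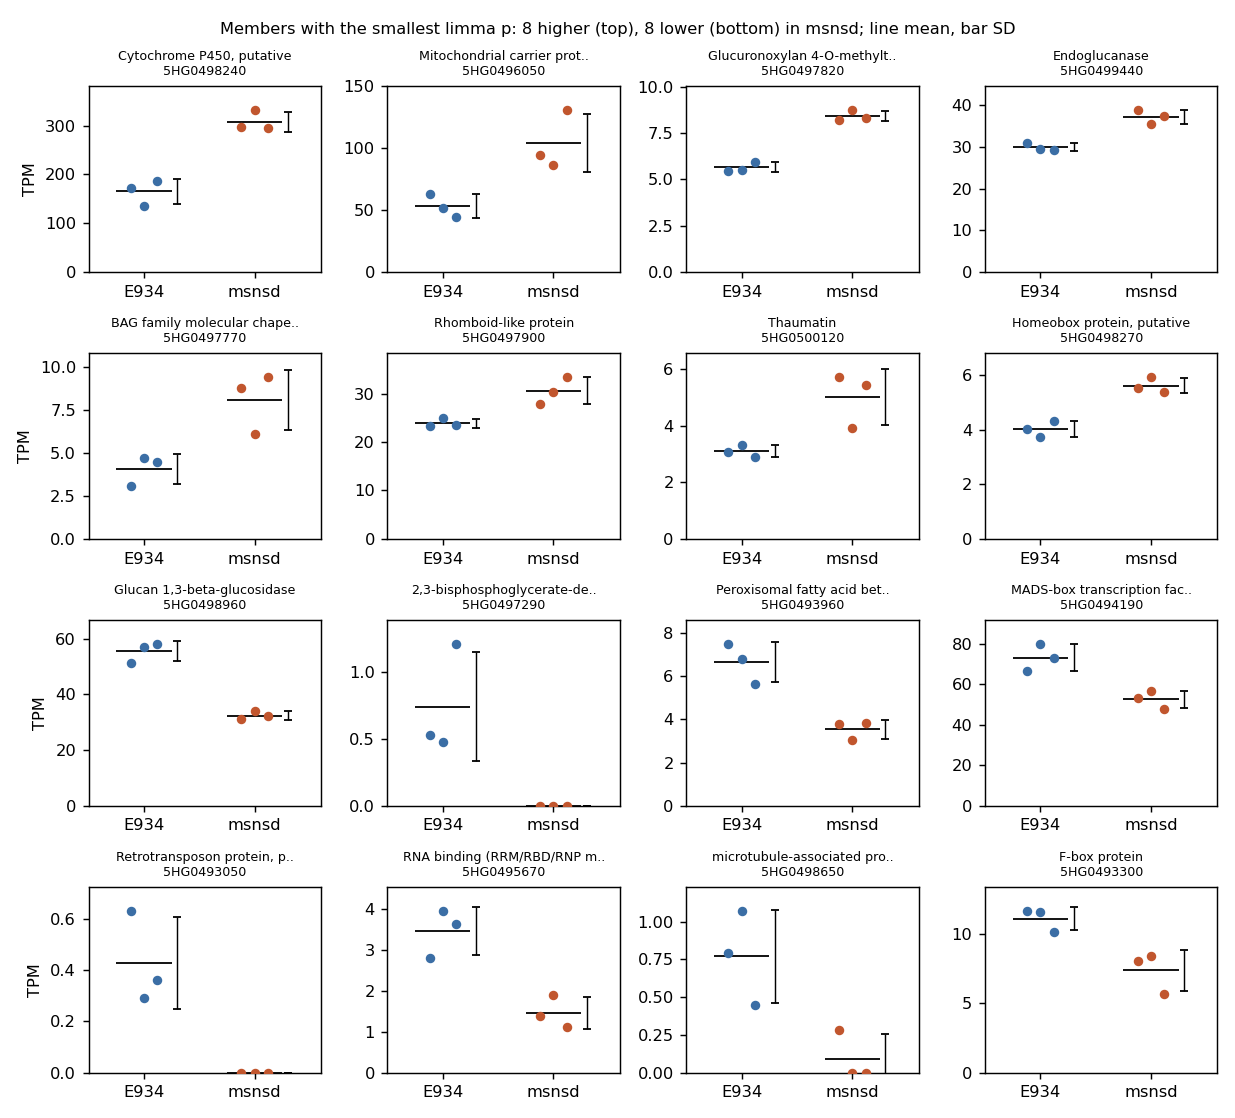
TPM per library of the 8 members with the smallest limma p that were higher in *msnsd* (upper panels) and the 8 that were lower (lower panels), with blue points for E934, orange points for *msnsd*, a line at the mean and a bar of 1 SD (n = 3). In each panel the points of the genotypes do not overlap, with the glucan 1,3-beta-glucosidase gene at 51.38 to 57.98 TPM in E934 and 30.98 to 33.94 TPM in *msnsd*. The members were picked by small p, so this separation is no independent support.

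By description, 40 members were transcription factor genes, and 29 of them were tested. An unadjusted p under 0.05 was found for 5 that were higher and 2 that were lower in *msnsd*, 24.1% of the tested ones, beside 15.4% of the 1657 transcription factor genes tested over the whole table. Their median log2 fold change was 0.16, beside 0.00 over the table. Leaving out *msnsd* replicate 3 left 3 of 29 (10.3%) beside 9.06%.

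Of the lower ones, a MADS-box gene (HORVU.MOREX.r3.5HG0494190, 488377039 to 488384195), of the family that specifies floral organs and meristem fate, was at 66.39, 79.81 and 73.21 TPM in E934 and at 53.18, 56.56 and 47.97 TPM in *msnsd*. Every *msnsd* library was below every E934 library, with a log2 fold change of -0.47, a standard error of 0.10 and an adjusted p of 0.168 by limma. A basic helix-loop-helix gene (HORVU.MOREX.r3.5HG0497150), at lower coordinates than *HvTCP25*, was at 5.03, 10.17 and 8.30 TPM in E934 and at 4.55, 3.88 and 4.17 TPM in *msnsd*. The lowest E934 library was close to the *msnsd* range, and the log2 fold change was -0.83 with an adjusted p of 0.343 by limma.

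Of the higher ones, an ethylene-responsive factor gene (HORVU.MOREX.r3.5HG0497970, start 497085553), of the AP2 family to which CBFs also belong, was at 0.44, 0.99 and 0.28 TPM in E934 and at 1.47, 1.30 and 3.04 TPM in *msnsd*. The log2 fold change of 1.65 had a standard error of 0.50 and an adjusted p of 0.331 by limma, at a level near 1 TPM. A putative homeobox gene (HORVU.MOREX.r3.5HG0498270, start 498022092) was at 4.04, 3.74 and 4.33 TPM in E934 and at 5.51, 5.92 and 5.39 TPM in *msnsd*, with a log2 fold change of 0.47 and an adjusted p of 0.328 by limma. Homeobox proteins regulate meristems and organ identity. A B3 domain gene (HORVU.MOREX.r3.5HG0495750) was at 6.14, 8.11 and 7.0 TPM in E934 and at 8.73, 9.58 and 10.14 TPM in *msnsd*, a log2 fold change of 0.42.

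Squamosa promoter-binding-like (SPL) proteins regulate phase change and branching in the grass inflorescence. A pair of neighbouring gene models described as SPL overlap a single RefSeq model, so their values cannot be read as separate genes. The low-confidence one (HORVU.MOREX.r3.5HG0494170) was at 45.61, 43.66 and 40.56 TPM in E934 and at 48.80, 52.68 and 49.74 TPM in *msnsd*, a log2 fold change of 0.22. The other (HORVU.MOREX.r3.5HG0494180) was at 84.59, 76.64 and 65.72 TPM in E934 and at 70.84, 83.74 and 66.84 TPM in *msnsd*, with overlap and a log2 fold change of -0.03.

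The longest run of neighbouring members with the same description was that of the CBF genes. It held 14 genes between positions 494980330 and 495948398, from 0.0753 to 1.0424 Mb above *HvTCP25*, and these were 14 of the 15 genes so described in the whole table. Most were close to 0, as 9 of them had a 0 in some library and 3 had a mean of at least 1 TPM. Only 6 were tested. All 6 had a log2 fold change above 0, from 0.37 to 0.85 with a median of 0.65, while over all tested genes 47.6% were above 0. An unadjusted p under 0.05 was found for 1 of them, and the lowest adjusted p by limma was 0.416.

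That gene (HORVU.MOREX.r3.5HG0497670) was at 1.46, 1.83 and 2.0 TPM in E934 and at 3.82, 2.03 and 4.29 TPM in *msnsd*. *msnsd* replicate 2 was barely above the highest E934 library. The most abundant gene of the run (HORVU.MOREX.r3.5HG0497680) was at 2.92, 3.28 and 3.42 TPM in E934 and at 8.36, 2.81 and 6.07 TPM in *msnsd*, where replicate 2 was below all E934 libraries and the log2 fold change of 0.69 had an adjusted p of 0.537 by limma. These 2 genes held 74.6% of the mean TPM of the run, so its sum follows them. The summed TPM of the 14 genes was 5.50, 7.65 and 7.18 in E934 and 15.14, 7.49 and 13.73 in *msnsd*, or 6.78 ± 1.13 (SD, n = 3) against 12.1 ± 4.07 (SD, n = 3). *msnsd* replicates 1 and 3 were above the E934 range, and replicate 2 was within it. CBF genes form a multigene family, and reads shared between its copies could be split either way by the quantification.

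**Figure D5:**
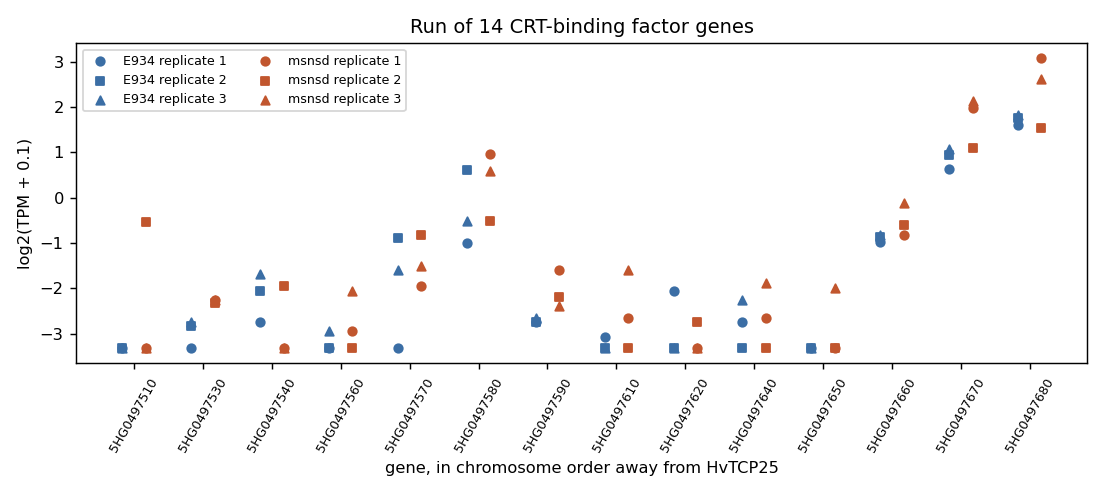
log2(TPM + 0.1) of the 14 neighbouring CRT-binding factor genes in chromosome order away from *HvTCP25*, with blue symbols for E934, orange symbols for *msnsd* and a symbol shape for each replicate number. The lowest symbols are genes listed at 0, and for the 2 most abundant genes at the right *msnsd* replicates 1 and 3 lie above all E934 libraries while *msnsd* replicate 2 lies near or below them.

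The 3 other runs, of 3 genes each, showed no member with an unadjusted p under 0.05. Kinase family genes 4.5 Mb below *HvTCP25* summed to 3.81, 4.53 and 3.59 TPM in E934 and to 3.78, 3.25 and 2.66 TPM in *msnsd*. Beta-glucosidase genes summed to 1.91, 5.48 and 4.36 TPM in E934 and to 5.51, 1.61 and 3.82 TPM in *msnsd*, and glycosyltransferase genes to 1.46, 2.84 and 2.04 TPM against 2.69, 1.58 and 2.99 TPM. The genotypes overlapped in each sum.

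Other groups of members were counted by their descriptions, at an unadjusted p under 0.05 beside the same description over the whole table. Among F-box, ubiquitin and RING genes, which act in protein turnover, 1 of 29 tested members was counted, the F-box gene named above (3.45% beside 8.22%). Among kinase and receptor genes 2 of 26 were counted, both higher in *msnsd* (7.69% beside 10.8%). The oxidase, dehydrogenase, P450 and glycosyltransferase genes gave 1 of 16, the P450 gene (6.25% beside 13.9%), and 0 of 10 RNA helicase, splicing and pentatricopeptide genes were counted (beside 5.93%). By description 13 members were transport or carrier genes, with 3 counted (23.1% beside 12.1%). They were the mitochondrial carrier gene, a DETOXIFICATION transporter gene that was lower in *msnsd* with overlap (HORVU.MOREX.r3.5HG0499750), and an esterase gene that only shares the word carrier (HORVU.MOREX.r3.5HG0497170).

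Transposon-derived members, remnants of mobile elements, gave 4 of 19 tested, 1 higher and 3 lower (21.1% beside 7.08%). The lower ones all had a mean under 0.5 TPM. The higher one, a Ty3-G Gag-Pol gene (HORVU.MOREX.r3.5HG0499700), was at 1.42, 2.60 and 1.09 TPM in E934 and at 2.68, 3.35 and 3.53 TPM in *msnsd*. Low-confidence models as a whole gave 18 of 122 (14.8%, beside 8.86% of the low-confidence models elsewhere on 5H), and high-confidence models gave 26 of 269 (9.67% beside 10.5%). The excess over the rest of 5H was thus found among low-confidence models, and it was not tested.

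The 5 most abundant members set the scale of the region and overlapped between genotypes. The gene for 60S ribosomal protein L7a (HORVU.MOREX.r3.5HG0494480), a part of the large ribosomal subunit, was at 998.47, 789.86 and 845.49 TPM in E934 and at 924.83, 923.84 and 953.28 TPM in *msnsd*. A gene model for L32 (HORVU.MOREX.r3.5HG0493030) was at 898.66, 729.43 and 842.20 TPM in E934 and at 873.88, 911.49 and 908.08 TPM in *msnsd*. Both had their lowest value in E934 replicate 2. The second L32 model, that for L44 and the gene for nuclear transport factor 2, which carries Ran into the nucleus, ranged from 242.75 to 498.49 TPM. The annotation gives the L7a, L32 and L44 models as low-confidence and non-coding. Log2 fold changes of the 5 genes lay between 0.00 and 0.13. Of 17 ribosomal and translation genes in the region 16 were tested, with 1 higher and 1 lower at an unadjusted p under 0.05 (12.5% beside 8.63% over the table).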

How the data were processed

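RNA was taken from young panicles of E934 and *msnsd*, with 3 biological replicates each as the labels give them, and p-values measure the spread between these samples. The authors mapped clean reads to Morex V3, quantified transcripts with Salmon 1.9.0 and deposited TPM per gene and library, rounded to 2 decimals. fastp is also named in the submitters' processing notes. The deposited columns of the authors' DESeq2 comparison (fold changes, p-values, mean counts) were not used. 0 TPM columns were left unmapped. Depth is unknown, so no counting interval is given.

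Genes with a mean of at least 0.1 TPM were tested with limma 3.58.1 (R 4.3.3; lmFit, eBayes with trend) on log2(TPM + 0.1), with no term but genotype. P-values were adjusted by Benjamini-Hochberg over all 32968 genes. A fold change on this scale understates the change of low genes. For single genes, the 20 assignments of libraries to genotypes gave a two-sided exact permutation test. Shares by distance and level are descriptions. Tables were made with pandas 2.3.3, scipy 1.17.1 and numpy 2.4.6 in Python 3.11.15, and figures with matplotlib 3.10.9. RefSeq models of the same assembly were matched by overlap of coordinates. Promoter motifs were not analysed here.

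Although the rule for the region uses positions only, the region's members and the lists were chosen with earlier results of these data known. Named were every tested member within 200 kb of *HvTCP25*, the 8 higher and 8 lower members with the smallest limma p under 0.05, the 5 of highest mean TPM and, as groups, runs of 3 or more neighbours with the same description. Other named genes were chosen after their values were seen. Alternatives were another pseudocount (1 or 0.01), filter (a mean of 1 TPM or none), scaling (median of ratios, quantile), no trend, a block for replicate number, leaving out each library, a window of 5 Mb and high-confidence genes only.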

Additional observations from a re-analysis of the deposited data

How the results depend on the processing

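Of the members, 0 passed the threshold of the study by limma under every alternative, and 1 had an adjusted p of at most 0.05 when no fold was asked for. Over all tested genes, 0 passed that threshold with the replicate block, without E934 replicate 3 and without *msnsd* replicate 1, 2 or 3. A count of 0 members was thus fixed in those settings. In the other settings 5 (without E934 replicate 2) to 30 (without the trend) of all tested genes passed. The 44 members with an unadjusted p under 0.05 became 22 within 5 Mb (10.7% beside 9.96% of the other 5H genes) and 26 with high-confidence genes only (9.67% beside 10.5%). When a library was left out they became 25 (6.35% beside 6.54%, without *msnsd* replicate 3) to 71 (18.2% beside 14.6%, without E934 replicate 1). The share in the region minus that of the other 5H genes, 1.36 percentage points, was -0.863 with high-confidence genes only and -1.83 (without E934 replicate 3) to 3.58 (without E934 replicate 1) with a library left out. The 71 members without overlap became 39 within 5 Mb (19.0% beside 16.6% of all tested genes). With a library left out they became 94 (24.0% beside 22.8%, without *msnsd* replicate 3) to 143 (36.6% beside 33.3%, without E934 replicate 1). The glucan 1,3-beta-glucosidase gene was the only named gene with an adjusted p of at most 0.05, and 0 had one with a pseudocount of 0.01, with no filter, with median-of-ratios scaling or without the trend. With a library left out there were 0 to 1, and 1 only without E934 replicate 1.

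The deviations of same-numbered libraries had correlations of 0.0239, -0.0717 and 0.0404 over all genes, so no deviation shared by number was seen. Whether the samples were collected or prepared in numbered pairs is not given by the labels, and these values cannot decide it. With the replicate block 39 members had an unadjusted p under 0.05, the share difference was -0.714 points and no named gene (0) reached an adjusted p of 0.05.

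Of 33 named genes, 7 changed sign in some setting, and none of the 16 with an unadjusted p under 0.05 did. Those 16 were picked by small p and had no overlap between genotypes. Leaving out a library therefore could not change their sign, and their steady sign is no support for them. Log2 fold changes with a library left out ran from -0.002 to 0.078 (HORVU.MOREX.r3.5HG0493060), from -0.137 to 0.151 (HORVU.MOREX.r3.5HG0494320), from -0.076 to 0.091 (HORVU.MOREX.r3.5HG0497350) and from -0.611 to 0.279 (HORVU.MOREX.r3.5HG0497380). For HORVU.MOREX.r3.5HG0497360 they were 0.004 with median-of-ratios scaling, 0.011 with quantile scaling and -0.065 to 0.052 with a library left out. For HORVU.MOREX.r3.5HG0497410 they were -0.005 with a pseudocount of 0.01, -0.029 with quantile scaling and -0.437 to 0.480, and for HORVU.MOREX.r3.5HG0498810 -0.006 with quantile scaling and -0.029 to 0.068. Causes were not tested. The counts of members from 1 to 10 TPM and of transcription factor members were rerun after the data had been seen.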

Other observations

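An order of the libraries that the genotypes do not describe was also counted. In 39 of 391 tested members (9.97%), E934 replicate 1 and *msnsd* replicate 2 were both below the other 4 libraries, beside 6.61% of the other 5H genes and 7.2% of all tested genes. Any pair of libraries is lowest in some genes, so the count has meaning only beside these shares. The pair was chosen after the values had been seen, and no test was made of it.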
